A study of Mus musculus with 8 samples.

Results

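*Tmem176a* and *Tmem176b* are neighbouring genes on mouse chromosome 6, and they were taken by name: every non-control probe on the array whose gene name was one of the pair was read. They are 2 of the 35560 genes named on the array and are measured by 3 of its 55295 usable probes, 1 for *Tmem176a* and 2 for *Tmem176b*. The pair was proposed with results of these data known, and *Tmem176b* had been selected on the difference between WT and KO values in these same 8 cells. Its levels in the 2 genotypes are therefore given as a description, with no test.

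Each of the 8 arrays (Agilent SurePrint G3 Mouse GE 8x60K, 1 colour) was hybridized with RNA made from the amplified cDNA of 1 endocardium cell, the endothelial lining cell of the heart, from an embryo at E8.5 with 9 somites. The 4 WT cells were *Mesp1* +/+ with *Sox17* flox/flox, and the 4 KO cells were *Mesp1* Cre/+ with *Sox17* flox/flox, so that both genotypes carried the floxed alleles and the Cre, carried at 1 *Mesp1* allele, was found in the KO only. *Mesp1*-Cre is active in early mesoderm, so that *Sox17*, a transcription factor gene of endoderm and arterial endothelium, is removed from all cardiac lineages and not from endocardium alone. Which embryo a cell came from is not given, a genotype was counted as 1 sample, and no p-value was computed for any difference.

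The proteins of both genes are small membrane-spanning proteins related to the MS4A family, which includes the B cell antigen CD20. They are best known from dendritic cells and macrophages, where they lie in endosomal membranes and conduct cations, and TMEM176B has been tied to restraint of the NLRP3 inflammasome and to antigen presentation on MHC class II.

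The probe sequences are given first because they place each measurement in its transcript. The first 30 bases of each 60-base probe are printed 5′ to 3′ in the sense of the mRNA, and no letter is in capitals.
Tmem176b 3′ probe: cttccacgaacagatattatgtcattttat
Tmem176b 5′ probe: cctgaagaagtttctctcctggcctcaggc
Tmem176a probe: ggtattttctcggagatgatgtctgtcaaa
On mm9, the build of the array files, the *Tmem176b* 3′ probe lies on the - strand at chr6:48783831-48783890, and the 5′ probe on the same strand at chr6:48788172-48788231. In the transcript they begin at positions 1589 and 761, so that the 5′ probe lies 828 bases nearer to the start. The *Tmem176a* probe begins at position 561 of its transcript and lies on the + strand at chr6:48794048-48794107. Its centre is 10217 bases from that of the *Tmem176b* 3′ probe, with 0 other genes of the array between them. Whether each probe lies in coding sequence or in a UTR was not analysed here.

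The genes are transcribed away from each other. In RefSeq on GRCm38.p6, a later build than that of the array, the nearest listed starts are 109 bases apart, with 2 listed starts for *Tmem176a* and 3 for *Tmem176b*. The 108 bases between these starts (chr6:48841375-48841482, + strand) are shown because a short shared interval is the setting in which joint transcription of the pair was asked about.
between the starts: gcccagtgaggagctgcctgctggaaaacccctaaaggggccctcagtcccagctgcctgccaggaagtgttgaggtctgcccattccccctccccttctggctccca
In windows from 250 bases before to 50 after each listed start, 5 short motifs, chosen after the values were seen, were searched on both strands. The motif ACAAT, the core bound by SOX proteins, was found at 1 place (capitals below, with 12 bases on each side, chr6:48841309-48841337), with its first base at -162 from the nearest *Tmem176a* start and outside the interval above.
ACAAT match: gattccacaggaACAATcagtgccaaccc
The same ACAAT match falls in 1 of the 3 windows of *Tmem176b*. ACAAT was present in 31.0% of 32851 windows of this length, so that its presence is common. CTTTGAT, the TCF/LEF motif, was also found at 1 place, at -181 from the same *Tmem176a* start, and was present in 3.73% of all windows. The matches of the 2 motifs do not overlap. The motif of cardiac zinc finger factors of the GATA class, AGATAA, was in 11.2% of all windows, GTGGGAA (RBPJ) in 6.38% and CCGGAAG (ETS factors) in 8.86%, and none of the 3 was found in the windows of the pair. A match is a string of letters and not a measured binding site.

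Intensities were scaled so that all arrays had the same median over the probes detected on every array, a minimum of 50 was then imposed and the values were put on the log2 scale, so that the lowest possible value (the floor) is 5.64. A probe was called detected in a cell when the scanner software marked it as well above background. The number of detected probes ran from 11370 to 18175 in WT cells and from 12781 to 16853 in KO cells, and 26833 probes were detected in at least 1 cell. Neither probe of *Sox17* was detected in any cell, and its highest scaled signal was 6.2, so that these arrays give no check of the deletion. All WT cells lay in 1 column of the slide and all KO cells in the other, so that slide column cannot be told apart from genotype.

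At its 3′ probe *Tmem176b* was well above background in every WT cell and in no KO cell. At its 3′ probe the log2 intensity in the WT cells, taken from 1 to 4, was 14.98, 11.15, 12.88 and 11.17. It was at the floor of 5.64 in all 4 KO cells, where the scaled signals before the floor were 11.3, 3.7, 1.3 and 2.0. The WT values spread over several log2 units, with WT cell 1 highest and WT cells 2 and 4 nearly equal, and the lowest WT cell was 5.51 above the highest KO cell. The difference of the means, KO minus WT, was -6.90 (SD between cells 1.28, n = 4 and 4), or at least 119-fold lower in KO cells, since a value at the floor gives only a limit. This was the most negative of 26833 differences. Among these probes 0.116% were detected in 4 WT and 0 KO cells, 0.242% had every WT cell above every KO cell, and 2.85% were at least 5-fold lower in KO cells. The gene was selected on this contrast, so that nothing further is read from these shares. Leaving out WT cell 1, the brightest, gave -6.09.

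**Figure D1:**
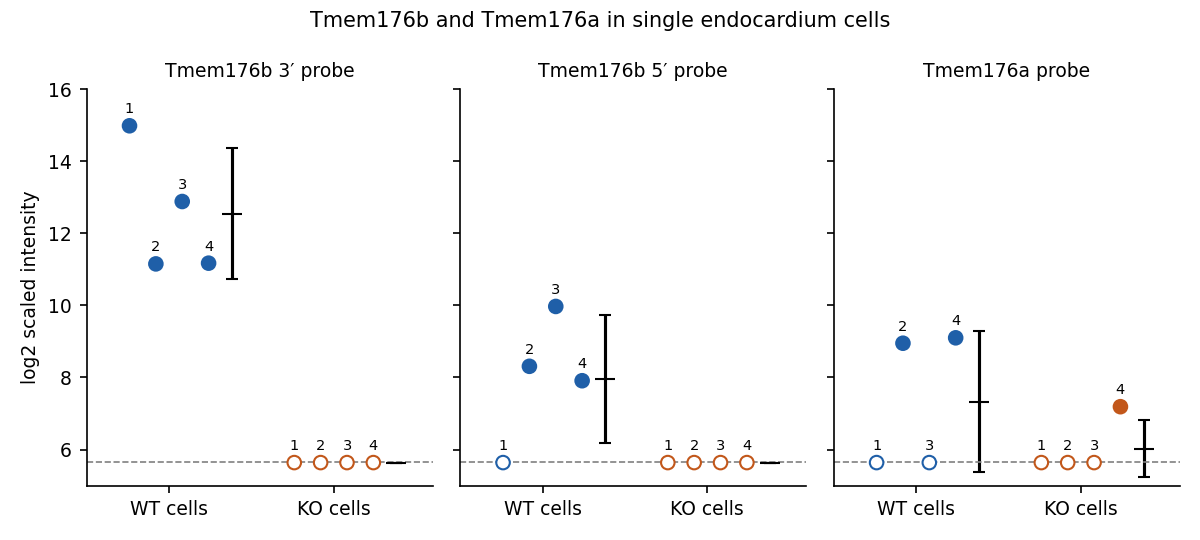
Log2 scaled intensity (vertical axis) of the 3 probes in each WT (blue) and KO (orange) cell, numbered by cell. Filled points are well above background, open points are not, the dashed line is the floor of 5.64 and the bars are the mean with its SD (n = 4). The 4 WT cells lie between 11.15 and 14.98 at the 3′ probe of Tmem176b with all KO cells at the floor, whereas the Tmem176a probe was detected in WT cells 2 and 4 and in KO cell 4.

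The 5′ probe of *Tmem176b* gave a different order of the WT cells. The WT cells, from 1 to 4, read 5.64, 8.31, 9.97 and 7.91, and all 4 KO cells were at 5.64, with scaled signals of 2.5 to 4.2 in KO cells. This probe was detected in 3 of 4 WT cells and 0 of 4 KO cells. WT cell 1, the highest at the 3′ probe, had a scaled signal of 4.2 at the 5′ probe and was not detected there, so that the genotypes touched at the floor. The difference was -2.31 (SD between cells 1.26, n = 4 and 4), or 4.98-fold lower in KO cells, and took place 770 in the order of differences. The floor entered the mean of both genotypes here, so that this is no lower limit, and a floor of 200 gave -0.81. It was -3.09 without WT cell 1 and -1.64 without WT cell 3. The mean of both probes differed by -4.61. Values of different probes are not on a common scale, so that the drop from one probe to the other within a cell is not a measured ratio of transcript ends.

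The share of transcripts that reached a 5′ probe differed between arrays. After the values of *Tmem176b* were seen, 3261 pairs of probes of 1 transcript, at least 500 bases apart, were read in the same way. Of the transcripts detected at the 3′ probe, 33.4%, 44.9%, 40.1% and 45.1% were also detected at the 5′ probe on the WT arrays, from cell 1 to cell 4. The KO arrays, in the same order, had shares of 37.2%, 33.9%, 43.1% and 42.5%. WT cell 1, which lacked the 5′ signal of *Tmem176b*, had the lowest share of the 8 arrays and the fewest detected probes. The part of this difference between arrays in the *Tmem176b* values was not tested.

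*Tmem176a* did not separate the genotypes. In the WT cells, from 1 to 4, its log2 intensity was 5.64, 8.95, 5.64 and 9.10. The KO cells, in the same order, read 5.64, 5.64, 5.64 and 7.19. WT cells 2 and 4 stood high and close together, KO cell 4 stood between them and the floor, and the other 5 cells were not detected, with scaled signals of 1.4 to 4.1. The difference of the means was -1.30, less than the SD between cells of 1.49 (n = 4 and 4), and took place 2325 in the order of 26833. It ran from -1.87 to -0.71 as each cell was left out, the latter without WT cell 4. KO cell 4 shows that *Tmem176a* could be detected in a cell with a *Sox17* KO genotype, at a scaled signal of 146.5 against 493.7 and 548.9 in the 2 WT cells.

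**Figure D2:**
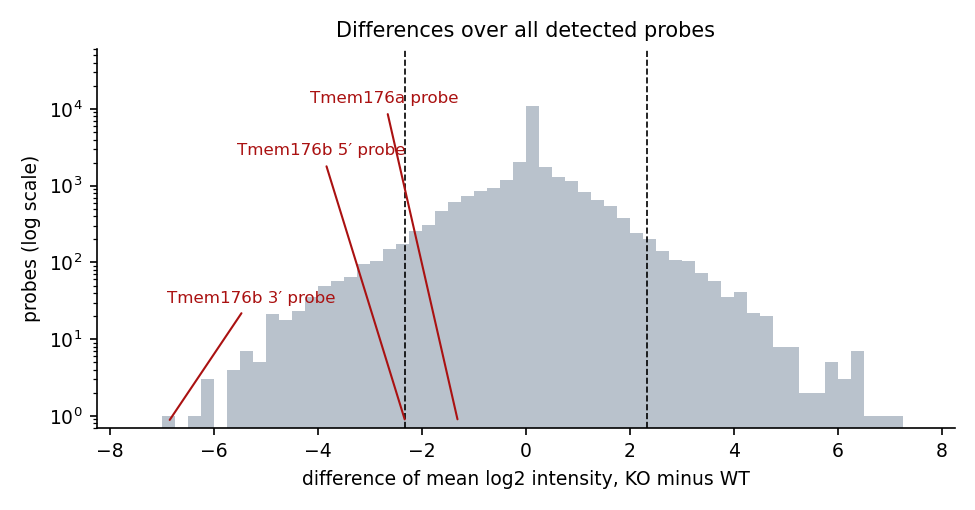
Number of probes (vertical axis, log scale) by difference of mean log2 intensity, KO minus WT (horizontal axis, bins of 0.25), over the 26833 probes detected in at least 1 cell. Dashed lines mark 5-fold differences, passed by 765 probes on the lower side and 760 on the higher. The 3′ probe of Tmem176b is at the lower end with -6.90, its 5′ probe is at the line with -2.31 and the Tmem176a probe is within the lines with -1.30.

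Whether the neighbours were expressed together was read from the calls in each cell, with *Tmem176b* given by its 3′ probe, which had the higher mean. Both genes were detected in WT cells 2 and 4. *Tmem176b* alone was detected in WT cells 1 and 3, *Tmem176a* alone in KO cell 4, and neither in KO cells 1, 2 and 3. The genes thus had the same call in 5 of 8 cells, and of the 5 cells with either gene 2 had both, a share of 0.4. Within the WT cells the brightest *Tmem176b* cells at the 3′ probe, 1 and 3, were those without *Tmem176a*, and the 2 dimmer cells had both. At the 5′ probe WT cell 1 was instead at the floor. WT cells 1 and 3 also had the fewest detected probes of the WT arrays, 11370 and 14293. With the looser call of the scanner software for a signal above background, both were detected in 3 cells, *Tmem176b* alone in 2, *Tmem176a* alone in 1 and neither in 2, again 5 cells with the same call. The added cell with both was WT cell 3, where *Tmem176a* had a scaled signal of 2.4, below the 4.1 of KO cell 2, which was not called. By the looser call the *Tmem176b* 3′ probe was above background in KO cell 1, at a scaled signal of 11.3, and the 5′ probe was so too in WT cell 1 and in KO cells 3 and 4, at 4.2, 2.5 and 3.0. No correlation over the 8 cells is given for the pair, since *Tmem176b* splits them into 2 separate groups.

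Other neighbouring genes give the background for this count. Pairs of consecutive genes with probes at most 20 kb apart, each detected in 1 to 7 cells, numbered 2313. Their calls were the same in a median of 5 of 8 cells, as for *Tmem176b* and *Tmem176a*, and 53.0% of the pairs had the same call in at least 5 cells. Same calls in at least 7 cells were found in 13.8% of pairs, a level the 2 genes did not reach. The median share of cells with both, among cells with either, was 0.25, against 0.4 here. Among the 394 pairs that point away from each other as these do, a subset chosen after the values were seen, the median was also 5 cells, 18.8% of pairs had the same call in at least 7 cells, and the median share was 0.33. The number of cells in which *Tmem176a* and *Tmem176b* had the same call was thus at the median of neighbouring pairs on these arrays. *Tmem176b* was selected on its contrast between genotypes, which bears on its calls. The background pairs were also not matched to the 2 genes in how many cells each gene was detected. Nothing about joint expression is therefore read from the count or the share.

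**Figure D3:**
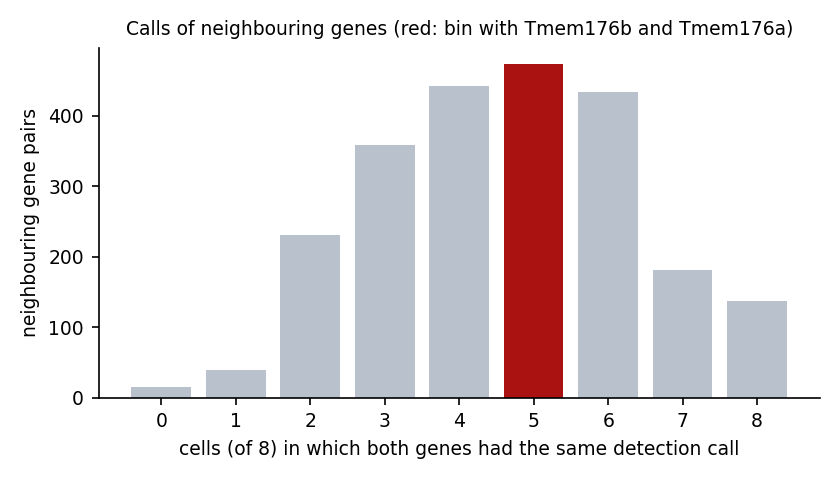
Number of neighbouring gene pairs (vertical axis, 2313 in all) by the number of the 8 cells in which both genes had the same call (horizontal axis). The red bar, at 5 cells, holds 473 pairs, Tmem176b and Tmem176a among them, and it is the tallest bar.

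The number of detected probes on an array moved with the *Tmem176a* call. *Tmem176a* was detected on the arrays of WT cell 4, WT cell 2 and KO cell 4, with 18175, 16429 and 16299 detected probes, which were the highest, the third and the fourth of the 8 arrays. KO cell 3 had 16853 detected probes and no *Tmem176a*. The 4 arrays with fewer detected probes, 11370 to 14293, had none. The 3′ probe of *Tmem176b* followed another order: it was highest in WT cell 1, which had the fewest detected probes, and at the floor in KO cells 3 and 4, which had 16853 and 16299. At its 5′ probe WT cell 3 was highest and WT cell 1 did not pass the floor. The part of detection per array in the *Tmem176a* values was not tested.

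**Figure D4:**
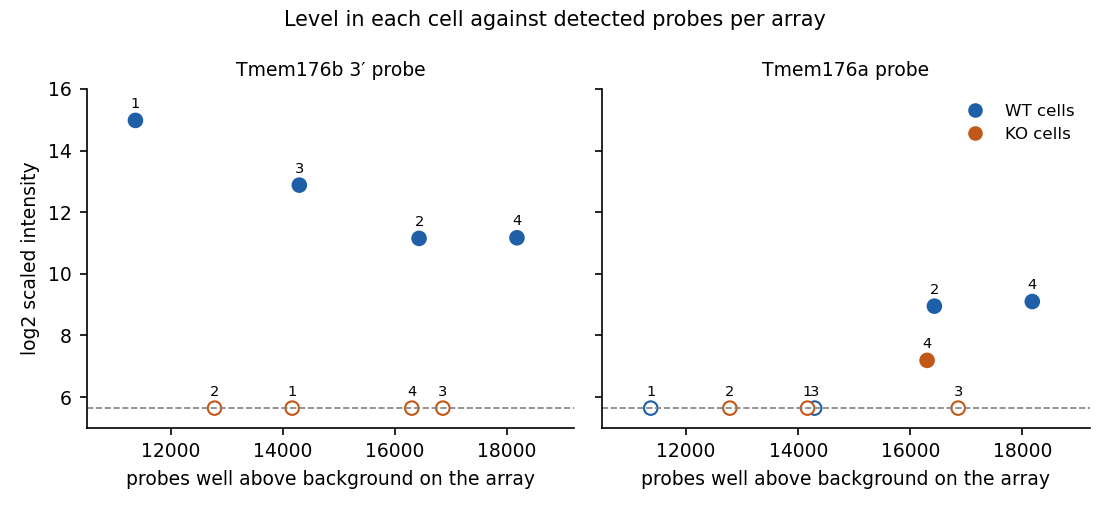
Log2 scaled intensity (vertical axis) of the Tmem176b 3′ probe (left) and the Tmem176a probe (right) against the number of probes well above background on the array (horizontal axis), 1 point a cell, numbered within WT (blue) and KO (orange). Open points are not well above background and the dashed line is the floor of 5.64. All 3 cells with Tmem176a have at least 16299 detected probes, whereas the Tmem176b 3′ probe is highest in the WT cell with 11370.

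The genes around the pair were read in the same way. Within 500 kb of the 3 probes there were 41 other probes for 34 genes, of which 23 probes for 19 genes were detected in at least 1 cell. Over all genes of the array, with 1 probe a gene, 53.8% were detected, a share close to that of the nearby genes. A nearby gene was counted by any of its probes, so that the shares were not counted alike. None of the nearby probes was detected in 4 WT and 0 KO cells, a pattern that was also rare among all detected probes, at 0.116%, so that nothing particular to the neighbours is read from it. *Gimap6*, a GTPase gene of a cluster known from lymphocytes and endothelium, was the 1 nearby probe at least 5-fold lower in KO cells, against 2.85% of the 26833 detected probes. It read 5.64, 5.64, 10.50 and 12.62 in WT cells and was at the floor in all KO cells, a difference of -2.96 (SD between cells 2.49, n = 4 and 4). Its high cells were WT 3 and 4, whereas *Tmem176b* was highest in WT 1 and 3 at its 3′ probe and in WT 3 and 2 at its 5′ probe. *Igf2bp3*, an RNA-binding protein gene 252 kb from the *Tmem176b* 3′ probe, was the 1 nearby probe at least 5-fold higher in KO cells, with a difference of 2.42 (SD 2.27), against 2.83% of the detected probes. The *Gimap* cluster on the *Tmem176b* side held 8 genes, of which 5 were detected and 4 rose above the floor in some cell. Over all genes, with 1 probe a gene, these shares were 53.8% and 41.0%, and nothing is read from counts in so few genes. *Gimap1* differed by -1.23 (SD 2.26), *Gimap9* by -0.31 (SD 2.51) and *Gimap4* by -1.71 (SD 2.41) at 1 of its 3 probes, all less than their SD. On the *Tmem176a* side the nearest detected gene was *Gm7932*, 32 kb from the *Tmem176b* 3′ probe, with a difference of 0.22 (SD 0.31). *Doxl1* and *Doxl2*, diamine oxidase-like genes, were detected in all 8 cells with differences of -0.38 (SD 0.78) and 0.00. *Malsu1* (-1.29, SD 1.82), *Tra2a* (-1.13, SD 3.22), *AK034606* (0.20, SD 0.46) and *B230214O09Rik* (0.00) lay further along. The probes of *Doxl2* and *B230214O09Rik* were at the floor in every cell, so that their 0.00 is set by the floor. Beyond the *Gimap* genes, *Krba1* (2.22, SD 3.14), *Atp6v0e2* (0.26, SD 0.36), *Repin1* (-0.10, SD 3.67) and *Zfp775* (-0.19, SD 0.27) also differed by less than their SD. *Krba1*, *Atp6v0e2*, *Zfp775*, *Gimap4*, *Gm7932* and *Malsu1* were above the floor in 1 cell only. A difference that rests on 1 such cell is always less than its SD, so that no lack of change is read from it. The 4 detected probes of *Zfp467* ran from -1.88 to 1.73 with SDs of 2.33 to 3.02, and *AI854703* differed by 1.02 (SD 0.57). *Gimap8* was detected in 1 WT cell and stayed at the floor.

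**Figure D5:**
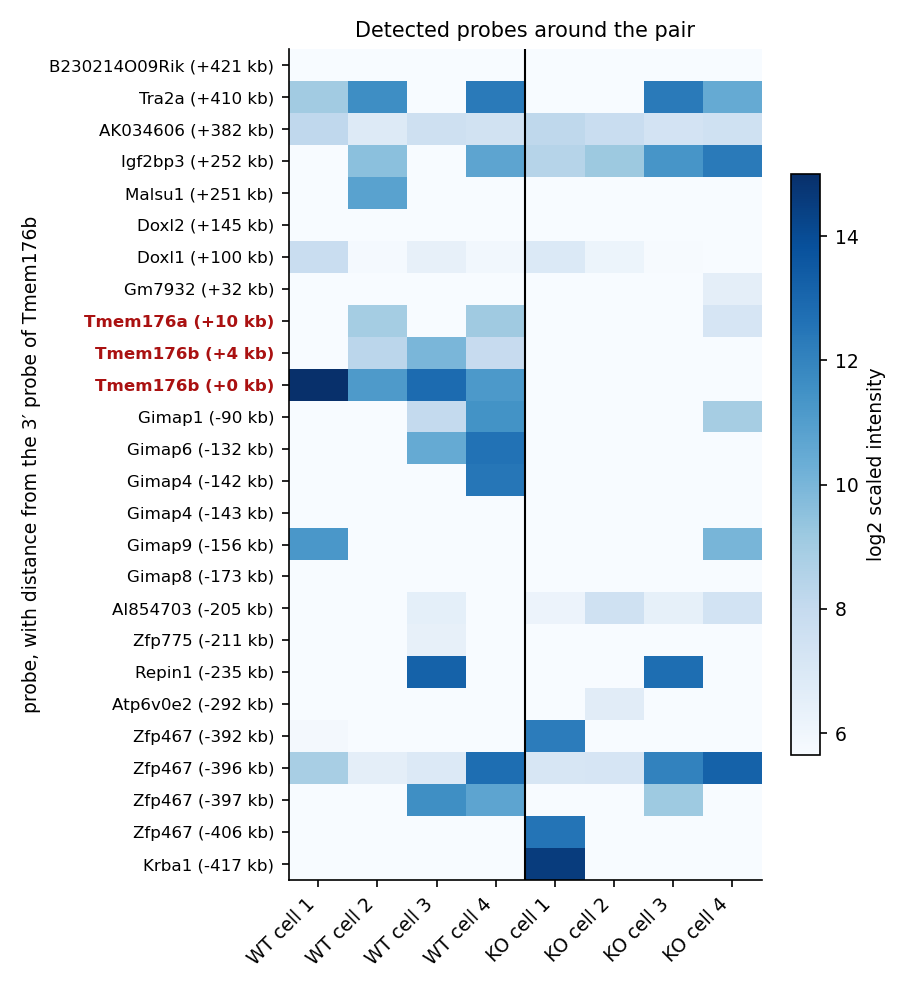
Log2 scaled intensity (colour scale, from the floor of 5.64) in each of the 8 cells (columns, WT left and KO right of the line) for the detected probes within 500 kb of the pair (rows, in chromosome order, with the distance from the 3′ probe of Tmem176b in kb). The Tmem176b 3′ probe is the 1 row filled in all 4 WT cells and empty in all 4 KO cells, next to rows that are filled in scattered cells.

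Genes with a pattern like that of the pair were ranked by Pearson's r over the 8 cells, among probes detected in at least 4 cells. Each gene was given by its probe with the highest r, so that r and the difference are those of 1 probe, and other probes of the gene are not shown. For the *Tmem176b* 3′ probe the 10 highest were *Hk1* (r = 0.988), which encodes hexokinase 1, *Bin1* (0.987), *Mrps16* (0.983), *Matr3* (0.945), *Olfr1537* (0.942), *Eps15l1* (0.933), *Ccdc137* (0.933), a transcribed region of chromosome 1 with no gene name (0.931), *Tubg1* (0.927) and *1810073O08Rik* (0.919). The 8 cells fall into WT and KO groups for *Tmem176b*, so that r rests mostly on the difference between genotypes that chose the gene. Their own differences ran from -6.30 for *Tubg1*, the gene of γ-tubulin, to -1.18 for *1810073O08Rik*. For *Tmem176a* the 10 highest were *Casp8* (0.997), which encodes an initiator caspase, *Ubash3b* (0.997), *Drap1* (0.995), *Mindy1* (0.994), *Ddi2* (0.992), *Cwc22* (0.988), *Tspan5* (0.985), *Ppp1cb* (0.983), *Pkmyt1* (0.981) and *B4galt3* (0.978). *Tmem176a* was at the floor in 5 of 8 cells, so that these rest on WT cells 2 and 4 and KO cell 4, which are 3 of the 4 arrays with the most detected probes.

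Relatives and partners of the pair were counted with 1 probe a gene. Over all 35560 genes, 53.8% were detected in at least 1 cell and 41.0% rose above the floor, and of the detected genes 3.43% were at least 5-fold lower and 3.41% at least 5-fold higher in KO cells. Counts of 5-fold differences in lists this short are given for completeness, since few or none are due at those shares. Of 15 MS4A family genes measured, 3 were detected and 1 rose above the floor. This was *Ms4a4c*, at 12.34, 12.61, 13.57 and 12.69 in WT cells and 11.25, 15.29, 12.36 and 12.90 in KO cells, at 1 of its 3 probes, with a difference of 0.15 (SD 1.26). None was at least 5-fold apart, and the median difference of the detected genes was 0.00, as over all 26833 probes. Of 12 inflammasome genes, 6 were detected, close to the share over all genes, and none was at least 5-fold apart, with a median difference of -0.49. *Nlrp3*, the sensor that TMEM176B is known to restrain, was detected in 2 WT and 2 KO cells and stayed at the floor in all, and *Casp1* and *Il1b* were not detected. *Pycard*, the adaptor of the complex, was detected in all 8 cells, with a difference of -1.08 (SD 0.97). *Nlrp1a* differed by -1.71 (SD 2.81), *Txnip* by -0.59 (SD 2.55) and *Aim2* by -0.40 (SD 0.57).

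Of 12 genes of MHC class II and antigen processing, 6 were detected, again close to the 53.8% over all genes, and 1 was at least 5-fold higher in KO cells. This was *Lgmn*, a lysosomal protease gene, at 5.64, 5.64, 5.64 and 10.09 in WT cells and 7.90, 6.20, 12.32 and 10.63 in KO cells, a difference of 2.51 (SD 2.49). The genotypes overlapped in WT cell 4. *H2-Ab1* was detected in WT cell 3 alone, at 9.27, and *Ciita*, the master regulator of the class, differed by 0.33 (SD 0.25). *Ciita* lay close to the floor at this probe, 1 of its 3, and was highest at 6.29 in WT cell 1 and 6.30 in KO cell 1.

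The cells were set against markers of the types they could hold, since *Tmem176b* is best known outside the endocardium. The paper identified the type of each cell by PCR of marker genes, so that detection of endothelial markers may follow from that choice. All 10 endocardial or endothelial genes were detected in at least 1 cell, against 53.8% over all genes. *Cdh5* and *Kdr* were detected in all 8, with differences of -0.96 (SD 1.48) and 0.16 (SD 2.47). So were *Pecam1* (-0.48, SD 2.43) and *Sox18* (0.53, SD 1.48), though both were at the floor in WT cell 2. *Tie1* was detected in 3 WT and 4 KO cells and *Sox7* in 3 and 3. *Emcn*, a sialomucin gene of endothelium, was the 1 marker in this list at least 5-fold apart, higher in KO cells by 4.07 (SD 2.58). Others of the list lay on the lower side: *Tek*, an angiopoietin receptor gene, was detected in 4 WT and 2 KO cells with a difference of -2.16 (SD 1.88), *Nfatc1*, a transcription factor gene of endocardium, in 4 and 3 with -1.58 (SD 2.23), and *Npr3* in 3 and 0 with -0.27 (SD 0.26). The summed scaled signal of the list was 10037.3 to 35685.3 in WT cells and 7045.3 to 79403.4 in KO cells. Of 15 macrophage or dendritic cell genes, 8 were detected, close to the share over all genes, none was at least 5-fold apart, and the median difference of the detected genes was 0.30. *Ptprc*, the common leukocyte antigen, was detected in 0 of 8 cells, as were *Lyz2*, *Aif1*, *Cx3cr1* and *Tyrobp*, and *Adgre1*, though called in 5 cells, stayed at the floor in all. *Csf1r* was detected in all 8 cells, with a difference of 0.91 (SD 1.88), and so was *Itgam* at 1 of its 3 probes, with 0.88 (SD 1.29). *Mrc1* was above the floor in WT cell 1 and KO cells 1 and 3 (difference 0.44, SD 3.07), and *Fcer1g* differed by 0.42 (SD 0.31). *Fcer1g* lay close to the floor, highest at 6.35 in WT cell 1 and 6.62 in KO cell 1. The summed scaled signal of the macrophage or dendritic list ran from 5823.8 to 30838.9 in WT cells and from 5422.6 to 70970.9 in KO cells, so that the ranges overlapped.

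Of 9 cardiomyocyte genes, 8 were detected, against 53.8% over all genes, and *Actc1* was at least 5-fold higher in KO cells (2.67, SD 2.79). *Actc1* was above the floor in every cell, from 6.38 in WT cell 1 to 15.32 in KO cell 1. *Myl4* reached 14.03 and *Myh7* 13.24 in WT cell 2, and *Tnnt2* reached 13.26 in KO cell 4. *Myh6* and *Tbx5* stayed at the floor in every cell. *Myl4* (-0.33, SD 3.71), *Myl7* (-0.15, SD 3.15) and *Tnnt2* (0.47, SD 3.37) differed by less than their SD. The summed signal of this list was 318.2 to 34056.3 in WT cells and 1000.7 to 48718.7 in KO cells. Of 4 smooth muscle genes, *Acta2* and *Tagln* were detected in all 8 cells, with differences of -0.36 (SD 3.81) and 0.31 (SD 1.08), and summed signals of 68.3 to 14377.4 and 58.6 to 7725.5. *Acta2* was high in WT cell 2 (13.80) and KO cell 4 (12.86) and low in WT cell 1 (6.15). Though called detected, it was at the floor in WT cells 3 and 4 and in KO cells 1, 2 and 3. None of 7 erythroid and none of 7 endoderm genes rose above the floor in any cell, against 41.0% of all genes. Their summed signals were at most 73.8 and 58.9. No list given here kept the genotypes apart in its summed signal. *Tmem176b* was selected on that contrast, so that it is no fair measure for the lists. A sum also rests mostly on the brightest genes of its list, and whether cell content differed between genotypes was not tested.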

How the data were processed

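Single endocardium cells, 4 WT and 4 KO, were measured on 1 array each. The authors deposited scanner output from Feature Extraction 12.0.2.2 (array design 028005, mm9): intensity corrected for background and for trends within the array, not normalized between arrays, and flags for outlier spots and signal over background. Control and outlier spots were removed, repeated spots were averaged, and 55295 of 55681 probes, those usable on all arrays, were kept. A probe was detected when over 50% of its spots were well above background. Arrays were scaled to the 50th percentile of the 7570 probes detected on all 8, floored at 50 and put on the log2 scale. The order of floor and scaling in the methods was an alternative. Probes were named through RefSeq accessions (GRCm38.p6, 28331 matched). Differences were KO minus WT means with the pooled SD between cells. Where a list gene had several probes, the one with the highest mean was used.

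The members and lists were chosen with earlier results of these data known. Genes named were the members, detected genes within 500 kb, the 10 most alike in pattern to each member, and up to 4 genes with the highest mean of each list. Other list genes named, for their known role or as the gene past 5-fold, were chosen after their values were seen. One of the gene lists is not reported here. The steps were tested on simulated data. The number of arrays limits the precision. Sequences are from the array files and RefSeq. Python 3.11.15, numpy 2.4.6, pandas 2.3.3, matplotlib 3.10.9, and R 4.3.3 with limma 3.58.1 were used.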

Additional observations from a re-analysis of the deposited data

Results flagged for a closer look

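In groups of 4 cells, the gap of the highest or lowest cell to the next was set against the whole range of the group for the members and for the detected probes within 500 kb. Of 34 groups with any spread, 17 passed Dixon's critical value, where chance alone passes about 1 in 20, or 1.7. In all 17 the other 3 cells were at the floor, so that the ratio was 1.0 by construction which says only that 1 cell was above the floor. For the members this was *Tmem176a* in KO cell 4. Nearby it was *Krba1*, *Zfp467*, *Atp6v0e2*, *Repin1*, *Zfp775*, *AI854703*, *Gimap9*, *Gimap4*, *Gimap1*, *Gm7932* and *Malsu1*, each with a ratio of 1.0. No *Tmem176b* probe was among them.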

How the results depend on the processing

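The alternatives were the 75th percentile, the percentile of all probes, the floor before the scaling, quantile normalization, normexp, other floors, outlier spots kept and each cell left out, and none of the differences of the pair changed sign under them. For *Tmem176b* the floor set the size: the 3′ probe gave -9.18 with a floor of 10, -4.90 with a floor of 200 and -10.85 with no floor, the 5′ probe -4.06, -0.81 and -5.42, and the mean of both -6.62, -2.86 and -8.13. *Tmem176a* ran from -2.48 with no floor to -0.69 with a floor of 200. Leaving out each cell gave -7.36 to -6.09 at the *Tmem176b* 3′ probe, -3.09 to -1.64 at its 5′ probe, -4.85 to -4.22 for their mean and -1.87 to -0.71 for *Tmem176a*. Cells with both genes numbered 2 or 3 under the 4 alternatives. They numbered 3 only with the looser call, which counted *Tmem176a* in WT cell 3 at a scaled signal of 2.4. Probes at least 5-fold lower in KO cells, 765 here, numbered 1485 with a floor of 10, 271 with 200, 2034 with no floor, 128 among probes detected on all arrays, 357 among those detected on all arrays of 1 genotype, and 788 to 1228 with a cell left out, the highest without WT cell 1. No paired analysis was possible because each genotype counts as 1 sample and the result comes from no test. Signals under the floor have no order, and a signal below background is not shown to be absent.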
